A study of Homo sapiens with 2 samples.

Results

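Among the single cells of human brain organoids profiled by split-seq, a small group of barcodes took more than 10% of their transcripts from the mitochondrial genome. The mitochondrial share of a barcode was the summed count of its genes named MT- over its total count of transcripts. Barcodes were kept with more than 500 genes and more than 700 transcripts, and no upper limit was set on the share. A total of 852 of 29329 kept barcodes had a share above 10% (2.90%, 95% exact binomial interval 2.72 to 3.10%), and these are called mitochondria-high barcodes. They were compared with barcodes of a 1% to 5% share from the same first-round well and of similar depth, on counts from which all MT- genes were left out.

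All cells came from the human embryonic stem cell line H9. Control organoids (CO) were made with the commercial STEMdiff cerebral organoid kit and taken at days 45, 55 and 70. Dissociated organoids (DISS) were CO broken into single cells at day 45, reaggregated, and taken at days 48, 55 and 70. Constrained organoids (CONS) were CO freed of Matrigel at day 13, set in 3% agarose and taken at day 55. The labels mention snap freezing, which the study's methods give for nuclei only, and dissociation with the enzyme mix Accumax before barcoding, and all conditions went into 1 library whose barcodes carry 1 sample name. Which barcode came from CO, DISS or CONS, or from which day, is therefore not known here. The study sequenced several organoids and batches per condition, but these cannot be told apart here either. The library is therefore treated as 1 sample, no condition was compared, and no p-value is given. Intervals are 95% exact intervals that cover counting error only. A second library held nuclei of day 45 CO, which the paper took from whole frozen organoids and from organoids dissociated into single cells.

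The human mitochondrial genome encodes 13 mRNAs, 2 rRNAs and 22 tRNAs. The mRNAs encode subunits of the respiratory chain and of ATP synthase, whose remaining subunits are encoded in the nucleus and imported, and the rRNAs form the mitochondrial ribosome. A high mitochondrial share is widely used in single-cell work to remove barcodes of damaged cells, and it is also a property of cell types rich in mitochondria. The choroid plexus epithelium, which secretes cerebrospinal fluid, transports ions and carries motile cilia, is known as such a tissue.

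The cells library held 254967545 transcripts in 1303455 barcodes, from 1687604793 mapped reads, 48 first-round wells and 8 sub-libraries. The kept barcodes had a median of 1495 transcripts, and the mitochondria-high barcodes had a median of 1617.5 (quartiles 938.25 and 6568.5, highest 118598). The 3 well barcodes of a cell were not unique across sub-libraries. The 29329 kept barcodes held 23039 combinations of wells, and 4061 combinations were kept in more than 1 sub-library. These shared combinations covered 35.3% of kept barcodes and 48.5% of mitochondria-high ones (413 of 852, with 699 combinations in all). In the shared combinations the deepest barcode was a median of 3.85 times as deep as the next, the shares of these barcodes had a Spearman rho of 0.79, and 46.7% of the pairs lay in the same cluster. Several results are therefore also given with the deepest barcode of each combination only, which left 594 mitochondria-high barcodes of 23039 (2.58%, 2.38 to 2.79%). A further 134 kept barcodes, 2 of them mitochondria-high, had a barcode name that also occurred among the kept nuclei.

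The share that chose the mitochondria-high barcodes had a median of 13.4% (quartiles 11.3 and 16.5%) and reached 60.6%. Of these barcodes, 735 lay above 10% and up to 20%, 117 lay above 20%, 25 above 30% and 6 above 50%. All kept barcodes had a median share of 2.50% (quartiles 1.53 and 3.78%), with 21307 at 1% to 5% and 3258 above 5% and up to 10%. The threshold did not fall in a gap. The lowest chosen share was 10.0013% and the highest share not chosen was 9.98948%, with 201 barcodes from 9% to 10% and 169 from 10% to 11%.

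Most of the mitochondrial signal was rRNA. Over the mitochondria-high barcodes that could be matched, MT-RNR2 and MT-RNR1, the large and the small rRNA of the mitochondrial ribosome, made up 51.1% and 33.5% of the mitochondrial counts. The 13 mRNAs made up 15.4%, against 11.1% in their matched barcodes and 9.98% in free RNA, taken as the sum of barcodes of 10 to 100 transcripts in the same wells. MT-ND5, a subunit of complex I, was the most abundant mRNA with 4.70% of mitochondrial counts, followed by MT-CO1, a catalytic subunit of cytochrome c oxidase, with 3.71%. The complex I subunit MT-ND4 took 2.14% and cytochrome b, MT-CYB, took 0.781%. These proportions were not used to choose the barcodes, although the sum was.

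Per 10000 transcripts of all genes, MT-CO1 stood at 56.1 in mitochondria-high barcodes and 7.84 in matched barcodes, a ratio of 7.16. MT-ND4 stood at 32.5 against 4.96, a ratio of 6.55, and MT-CYB at 11.8 against 2.27, a ratio of 5.22. These levels follow from the way the barcodes were chosen. All 13 mRNAs together differed by a ratio of 6.59 and both rRNAs by 4.53, so within the chosen barcodes the mRNAs were raised further than the rRNAs. No barcode passed 10% from the 13 mRNAs alone (highest 7.67%), and the median share from mRNAs was 1.67% in mitochondria-high barcodes and 0.213% at 1% to 5%. When the 852 barcodes of the highest mRNA share were taken instead, 562 (66.0%) were mitochondria-high.

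**Figure D1:**
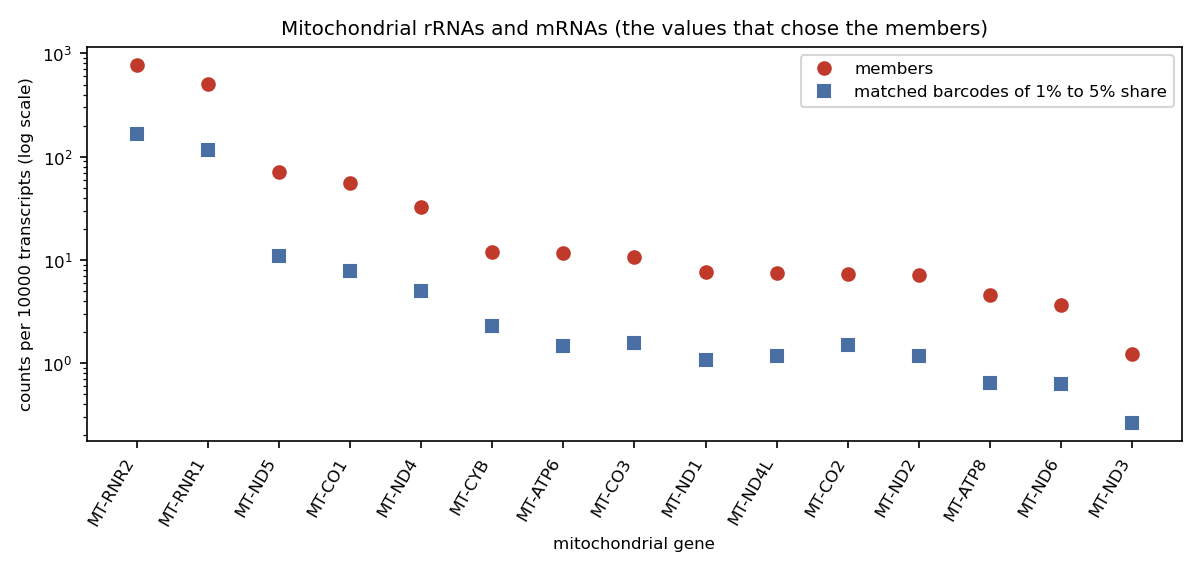
Counts per 10000 transcripts of all genes (log scale) of the mitochondrial rRNAs and mRNAs, summed over mitochondria-high barcodes (red circles) and matched barcodes of 1% to 5% share (blue squares). MT-RNR2 and MT-RNR1 lie above every mRNA in both groups, and each gene lies higher in the barcodes that were chosen by the sum of these values.

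The order of mRNAs and rRNAs was the opposite outside the choroid plexus-like cluster described next. There the mRNAs made up 7.70% of mitochondrial counts in mitochondria-high barcodes and 10.8% in barcodes matched within the same cluster and well, and the ranges over the 8 sub-libraries overlapped at 6.67 to 10.2% and 9.03 to 14.2%. The ratio was 3.43 for all mRNAs and 4.98 for both rRNAs. Within the choroid plexus-like cluster the mRNAs made up 17.1% against 15.9%, with ranges over sub-libraries that overlapped and reached up to 19.0% and 18.6%.

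Nuclear copies of mitochondrial genes were raised as well. A total of 402 such copies were recognised by name, of which 5 had at least 100 counts. Together they had 3082 counts in mitochondria-high barcodes and 464 in matched barcodes, a ratio of 7.54 (6.83 to 8.33) per transcript without MT- genes. MTATP6P1, a copy of the ATP synthase subunit gene MT-ATP6, had 1669 against 195 counts, a ratio of 9.71 (8.37 to 11.3). MT-ATP6 lies at chrM:8527-9207 and MTATP6P1 at chr1:633696-634376 on the plus strand of GRCh38, and 671 of their 681 aligned bases were identical (98.5%). The same 60 bases of each, from base 4 to base 63 of the aligned stretch, are given to show how little separates them, with the 1 position that differs in capitals.
MT-ATP6: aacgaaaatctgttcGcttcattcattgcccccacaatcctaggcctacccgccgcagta
MTATP6P1: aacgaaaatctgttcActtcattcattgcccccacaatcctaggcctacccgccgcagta
A short read of such a stretch cannot be assigned safely to either gene, so the copies were left out of the gene comparisons together with the MT- genes.

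The mitochondria-high barcodes were concentrated in 1 cluster. The kept barcodes were clustered without MT- genes and their copies into 23 clusters, and cluster 7, with 1669 barcodes, met 5 of 10 markers of choroid plexus: TTR, the carrier of thyroxine and retinol that this epithelium secretes, the chloride channel family gene CLIC6, the prolactin receptor PRLR, the serotonin receptor HTR2C and the transcription factor OTX2. It also met 3 multiciliated markers (DNAH9, DNAH11 and CFAP43) and 3 cortical hem markers (WNT2B, RSPO2 and LMX1A). It is called choroid plexus-like, although ABCA4 and RPE65, genes known from the retina and its pigment epithelium, were among its leading genes together with VWA3A, ARMC3 and CLIC6. The name is used here for cluster 7 alone. Cluster 21, with 111 barcodes, met 6 choroid plexus and 4 multiciliated markers and held 0 mitochondria-high barcodes (0 to 3.27%), and cluster 16 met 3 choroid plexus and 3 cortical hem markers. Both are counted with the other clusters.

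In this cluster 509 of 1669 barcodes were mitochondria-high (30.5%, 28.3 to 32.8%), against 343 of the 27660 in all other clusters (1.24%, 1.11 to 1.38%). The cluster held 59.7% (56.4 to 63.1%) of mitochondria-high barcodes and 5.69% of kept ones. Its median share was 6.70% and that of the other barcodes 2.43%, and 62.1% of its barcodes lay above 5%, against 11.1% of the others. With the deepest barcode of each combination of wells, 26.1% of choroid plexus-like barcodes and 1.29% of the others were mitochondria-high. The excess in choroid plexus-like barcodes was thus also seen when each combination was counted 1 time.

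Choroid plexus-like barcodes made up 2.45% of barcodes below 1% share, 2.52% at 1% to 5%, 16.2% above 5% and up to 10%, 62.3% above 10% and up to 20%, and 43.6% above 20% (51 of 117). The proportion was therefore highest just above the threshold and lower again at the highest shares. The cluster was also deeper than the library, with a median of 4638 transcripts, but within depth classes the order was kept. Mitochondria-high barcodes made up 42.9% of choroid plexus-like barcodes at 700 to 1000 transcripts and 34.0% above 20000, and 1.27% and 0.232% of the other barcodes at these depths. The proportion in the cluster was lowest, at 20.0%, from 3000 to 5000 transcripts, against 0.935% of the other barcodes.

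Other clusters held fewer mitochondria-high barcodes, and 3 had more than 5% of their barcodes or more than 50 such barcodes. Cluster 12, led by genes of cytoplasmic ribosomal proteins such as RPS28 and by TTR, held 81 of 948 (8.54%). Cluster 10, led by long noncoding RNAs and RUNX1, held 83 of 1383 (4.81 to 7.39%). Cluster 6, led by SULF1, NEAT1, HTR2C and TTR and with a median of only 1050.5 transcripts, held 57 of 1736 (3.28%). Clusters 6 and 10 met no marker list. Cluster 12 met 3 radial glia markers (SOX2, VIM and FABP7), none of which was among its leading genes, and it was left unnamed. In cluster 16, led by PAX3 and ZIC4, 23 of 532 barcodes (4.32%) were mitochondria-high.

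Several clusters held very few. The 3 largest, clusters 1, 2 and 3, held 23 of 4004 (0.574%), 1 of 3293 (0.0304%) and 9 of 3053 (0.295%). Cluster 11, led by the mitotic genes TOP2A and KIF14, held 7 of 999 (0.701%), a higher percent than in these 3. Cluster 13, led by EBF2, NHLH1 and EOMES and meeting 3 markers each of intermediate progenitors and excitatory neurons, held 1 of 894. No mitochondria-high barcode was found in clusters 9, 18, 20, 21, 22 and 23. For cluster 23, with 82 barcodes, the exact interval reached 4.40%, and its median share of 6.73% was close to that of the choroid plexus-like cluster. Cluster 21, led by the choroid plexus gene TMEM72 and ATP13A5, had 0 of 111 and a median share of 3.12%. A single well held 94.6% of the barcodes of cluster 21, and a single well held 97.6% of those of cluster 23.

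**Figure D2:**
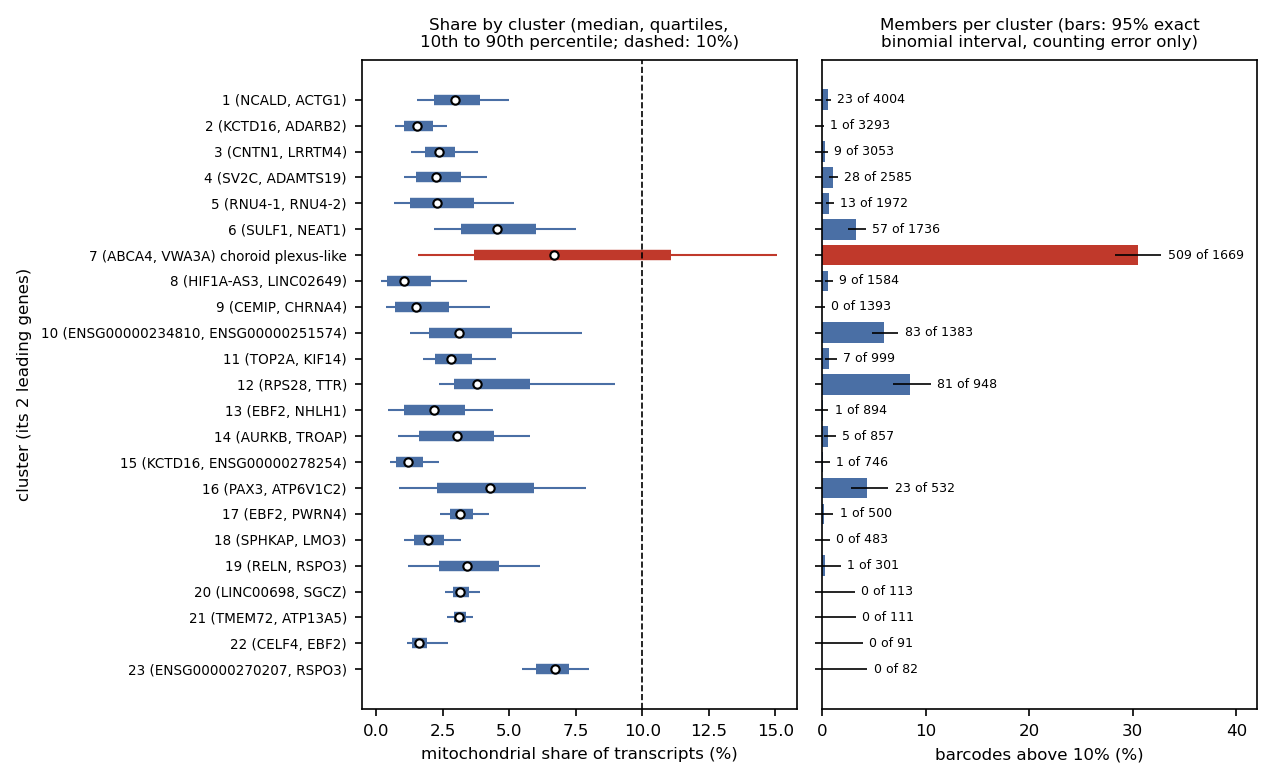
Mitochondrial share of transcripts (%) by cluster (left; point, median; thick bar, quartiles; line, 10th to 90th percentile; dashed line, 10%) and percent of barcodes above 10% in each cluster (right, with 95% exact binomial intervals for counting error). Cluster 7, choroid plexus-like, in red, reaches 30.5%, and the next highest, cluster 12, reaches 8.54%.

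How far the cluster stood apart depended on how finely the barcodes were clustered. At Leiden resolution 0.5 the cluster with most mitochondria-high barcodes had 2873 barcodes, 19.6% of them mitochondria-high. At resolution 2 it had 772 and 47.7%, and with another random seed it had 818 and 46.2%. In the last 2 cases 97.7% and 97.6% of the smaller cluster lay in the choroid plexus-like cluster, of which they made up 45.2% and 47.8%. These smaller clusters held 43.2% and 44.4% of all mitochondria-high barcodes, against 59.7% in the choroid plexus-like cluster. Mitochondria-high barcodes were thus more frequent in a portion of the choroid plexus-like barcodes. The smaller clusters held 368 and 378 of them, against 509 in the whole choroid plexus-like cluster and 852 over all clusters.

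Mitochondria-high barcodes were found in 42 of 48 first-round wells, whose conditions are not known here. Wells D10 and D11 held 201 and 139 of them, together 39.9%, whereas these wells held 11.3% of kept barcodes and 24.4% of choroid plexus-like ones. Wells C6 and A2 followed with 90 and 77. The percent of mitochondria-high barcodes had a median of 1.59% over the 48 wells and was highest in B8, a small well (11 of 65, 16.9%).

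Among the 8 wells with at least 50 choroid plexus-like barcodes, the mitochondria-high percent of those barcodes ranged from 0% to 63.7%, with a median of 24.8%. D10 (63.7%), C6 (62.0%) and D11 (58.9%) were highest, A2 reached 36.8%, and D6 and D12, where choroid plexus-like barcodes were most frequent, reached 12.7% and 8.20%. In 7 of these 8 wells the percent was higher than among the other barcodes of the well. Over the 33 wells with at least 200 other barcodes, 0 to 8.80% of those were mitochondria-high (median 1.08%).

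The wells also differed in their free RNA. In barcodes of 10 to 100 transcripts, the mitochondrial share was 3.17% over all wells and ran from 0.730% in C5 to 5.53% in D10, with a median of 2.83%. D11 (5.03%) and C6 (4.56%) were also high, and C5 and C4 (1.31%) had no mitochondria-high barcode. Over the 48 wells, which share the library, Spearman's rho was 0.95 between the median share of kept barcodes and the share in free RNA, 0.70 between the percent of mitochondria-high barcodes outside the choroid plexus-like cluster and the share in free RNA, and 0.70 between the percent of mitochondria-high and of choroid plexus-like barcodes. The part of free RNA in the shares was not tested.

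**Figure D3:**
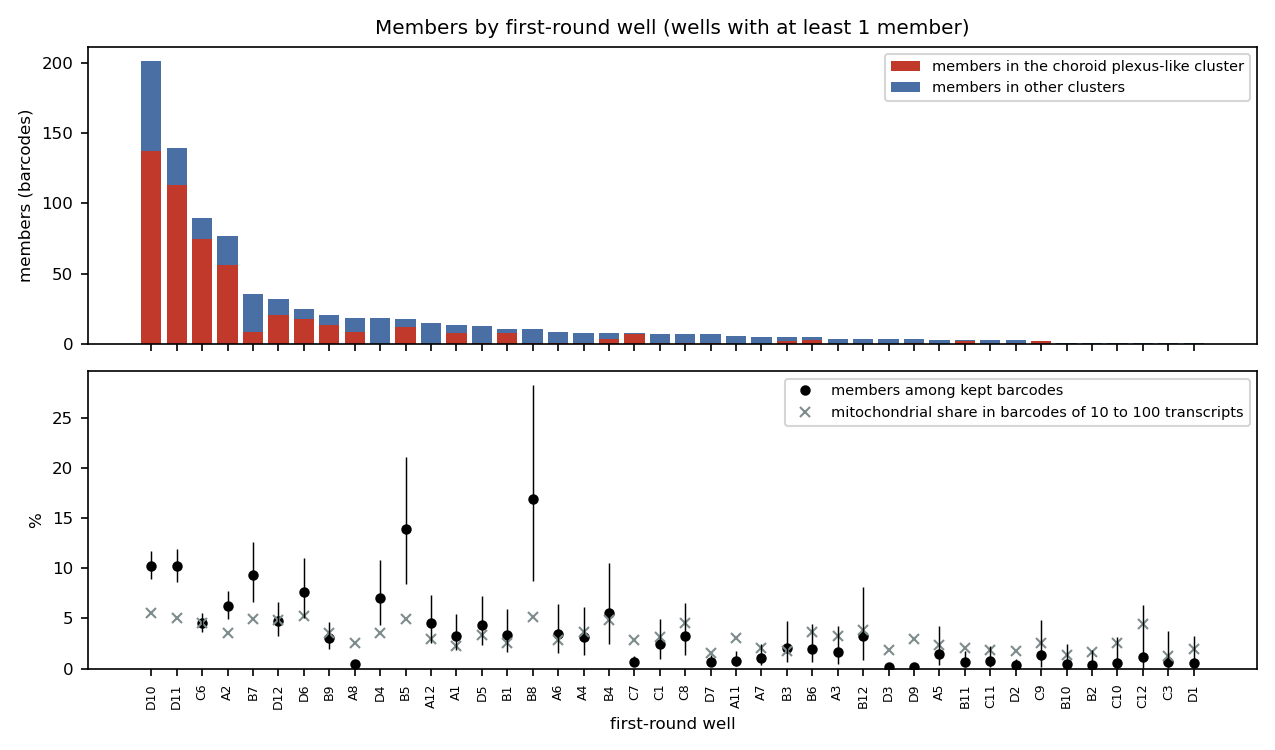
Mitochondria-high barcodes in each first-round well that had any (42 wells), as counts split into the choroid plexus-like cluster (red) and all others (blue) in the upper panel, and as percent of kept barcodes (black, 95% exact binomial intervals) with the mitochondrial share in barcodes of 10 to 100 transcripts (grey crosses) in the lower panel. D10 and D11 hold 340 of the 852, and their free RNA has shares of 5.53% and 5.03%.

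The sub-libraries, into which the authors demultiplexed the reads, differed less. Between 2.27% and 3.74% of their kept barcodes were mitochondria-high, and 41.0% to 70.7% of those were choroid plexus-like.

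To describe the nuclear transcriptome, 843 of the 852 mitochondria-high barcodes were paired with 1 barcode of 1% to 5% share of the same well, within 0.25 of its depth on the log2 scale. The medians were 1596 and 1573 transcripts with MT- genes, and 1295 and 1512 without. Levels are given as counts per 10000 transcripts without MT- genes, summed over barcodes, and a gene is counted as higher or lower when it differed at least 2-fold and had at least 100 counts over both groups. The deepest 10.0% of paired mitochondria-high barcodes held 54.9% of their transcripts. Among 12214 genes, 12.6% were higher and 9.33% were lower, with a median log2 ratio of −0.06. The pairs differed in cell type, since 59.4% of the mitochondria-high and 6.17% of the matched barcodes were choroid plexus-like.

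The markers of choroid plexus followed this difference. The 10 markers together stood at 208 per 10000 in mitochondria-high barcodes, 18.8 in matched barcodes and 36.6 in free RNA, a log2 ratio of 3.46 (3.44 to 3.49). All 8 markers with enough counts were higher, and the list was higher in 16 of 16 wells with at least 10 pairs, by 1.20 to 123-fold (median 10.9). TTR had 29546 against 3606 counts, a ratio of 9.30 (8.98 to 9.63). HTR2C had 63423 against 5869 counts, a ratio of 12.3 (11.9 to 12.6). The water channel AQP1 (10.2-fold) and TMEM72 (13.6-fold) were also higher, whereas the potassium channel subunit KCNE2 had 7 against 9 counts. With the deepest barcode of each combination only, the list had a log2 ratio of 3.53, in a comparison where 12.8% of all genes were higher and 9.66% lower.

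Genes of motile cilia were higher as well. The multiciliated list stood at 14.9 against 1.37 per 10000, a log2 ratio of 3.44 (3.33 to 3.55), and 6 of 6 genes with enough counts were higher. FOXJ1, the transcription factor that directs the formation of motile cilia, had 247 against 19 counts, a ratio of 14.8 (9.25 to 24.9). RSPH1, a radial spoke protein (14.1-fold), the axonemal dynein DNAH9 (12.3-fold) and CFAP43 (11.8-fold) were similar. The list was higher in 14 of 16 wells. With the deepest barcodes only, its log2 ratio was 3.59.

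The 15 genes with the largest ratios were the following. BMP4 (chr14:53949736-53958761), a signal of the dorsal midline from which choroid plexus arises, had 192 against 8 counts, a ratio of 27.2 (13.5 to 64.0). IGF2 (chr11:2129112-2158391), a growth factor that choroid plexus secretes, had 950 against 52 counts (20.7-fold). Cilia genes were CAPSL (25.7), CFAP47 (24.2), TPPP3 (22.8), SPAG8 (20.9), CFAP100 (20.6), ARMC3 (19.9), CLXN (19.7) and CFAP45 (18.7), of which CFAP45 was higher in 14 of 16 wells. TRPV4, a calcium channel found on choroid plexus epithelium, had 828 against 48 counts (19.6-fold). VWA5B1 and 3 long noncoding RNAs, KIF23-AS1 among them, made up the rest.

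The promoters of cilia genes often carry an X-box, the sequence bound by RFX factors, and the promoters of 3 of these genes are shown for that reason. Promoters from RefSeq on GRCh38.p14 (250 bases before to 50 after the start) were found for 16 of the 27 genes with the largest ratios in all or in choroid plexus-like barcodes. Each is printed 5′ to 3′ on the strand of its gene, with matches to the X-box letters GTTGCC on either strand in capitals and, in CFAP45, to the longer form, GTTGCC followed after any 2 bases by GG, any base and AAC, that overlaps 1 of them.
CFAP45, 1:159900116-159900415, minus strand: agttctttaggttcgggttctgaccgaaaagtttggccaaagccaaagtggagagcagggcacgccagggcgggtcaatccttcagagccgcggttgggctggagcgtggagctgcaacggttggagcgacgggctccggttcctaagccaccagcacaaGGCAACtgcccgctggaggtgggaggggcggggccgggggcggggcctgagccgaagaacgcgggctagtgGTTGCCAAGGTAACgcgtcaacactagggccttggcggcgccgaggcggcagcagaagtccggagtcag
CFAP100, 3:126394659-126394958, plus strand: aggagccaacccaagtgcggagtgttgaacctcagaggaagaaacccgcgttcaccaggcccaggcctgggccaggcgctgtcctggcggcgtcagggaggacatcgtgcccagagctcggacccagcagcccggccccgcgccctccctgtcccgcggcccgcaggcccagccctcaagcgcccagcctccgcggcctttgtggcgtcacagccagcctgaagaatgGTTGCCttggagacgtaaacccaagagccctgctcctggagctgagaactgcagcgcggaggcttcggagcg
CFAP47, X:35919484-35919783, plus strand: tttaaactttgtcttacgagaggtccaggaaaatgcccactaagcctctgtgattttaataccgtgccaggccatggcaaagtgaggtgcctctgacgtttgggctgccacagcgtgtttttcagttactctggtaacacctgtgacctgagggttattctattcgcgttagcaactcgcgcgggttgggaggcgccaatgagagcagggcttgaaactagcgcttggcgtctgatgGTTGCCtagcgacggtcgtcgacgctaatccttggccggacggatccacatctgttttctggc
The letters GTTGCC occurred in 6 of the 16 promoters (CAPSL, CFAP100, CFAP45, CFAP47, MNS1 and ZNF474) and in 12.2% of all 35116 promoters of this length. The longer form occurred in 1 (CFAP45) and in 0.362% of all. GTTGCTA, a variant of the X-box letters, occurred in 3 (ARMC3, CFAP47 and SLC39A12) and in 2.85% of all, and TGTTTAC, a forkhead core sequence, in 0 and in 3.42% of all. In CFAP45, CFAP100 and CFAP47 a match began 19, 22 and 13 bases before the annotated start, and CFAP45 held another 90 bases before it. These are matches of letters only.

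Neuronal and progenitor genes were lower in summed counts. The list of general neuronal genes stood at 6.87 against 24.6 per 10000, a log2 ratio of −1.84 (−1.90 to −1.79), with 9 of 10 genes lower. RBFOX3, the neuronal splicing factor NeuN, had 326 against 2539 counts, a ratio of 0.146. Excitatory neuron genes had a log2 ratio of −1.74 and 9 of 10 were lower. Genes of intermediate progenitors, such as EOMES (17 against 159 counts), had a log2 ratio of −2.17, radial glia genes −1.04 and G2/M genes −1.01. Of 9 radial glia genes with enough counts, 4 were at least 2-fold lower, PAX6, GLI3, FABP7 and PTPRZ1 (637 against 3674 counts), whereas VIM (0.991) and SLC1A3 (0.947) were close to equality and HES1 was 1.51-fold higher. With each barcode weighted equally, the log2 ratios were −1.01 for general neuronal and excitatory neuron genes, −0.94 for intermediate progenitor genes and −0.56 for radial glia genes. G2/M genes were then level (−0.02, at 10.7 against 10.8 per 10000), so their difference in summed counts was not seen in the average barcode. EBF2 (0.110), SCRT2 (0.112), L1CAM (0.115) and MYT1 (0.121), genes of young neurons, had the smallest ratios among protein-coding genes.

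Markers of other cell types went in both directions. The pigment epithelium and melanocyte list had a log2 ratio of 2.75 with TYR (427 against 31 counts), MITF and RPE65 higher, and PMEL, a melanosome protein, at 69 against 27 counts. Lists of the astrocyte and oligodendrocyte lineage (2.87), mesenchyme (2.23), endothelium (2.22) and immune cells (2.06) each rested on 1 or 2 genes with enough counts, which were higher. PDGFRA had 588 against 62 counts (10.8-fold), PDGFRB of mesenchyme 457 against 84 (6.17), CLDN5 and KDR of endothelium 275 against 32 (9.75) and 327 against 63 (5.89), and PTPRC of immune cells 95 against 14 (7.70). Within the choroid plexus-like cluster PDGFRA was 1.89-fold and CLDN5 2.90-fold higher. Other markers of these lists had fewer than 100 counts over both groups together and went in both directions. COL1A1 (74 against 21 counts) and COL1A2 (64 against 17), of mesenchyme, CSF1R (64 against 26), of immune cells, and S100B (30 against 5) were higher. GFAP, of astrocytes, had 7 against 18 counts, PECAM1, of endothelium, 14 against 30, CDH5, also of endothelium, 5 against 4, and C1QA, of microglia, 0 against 1, while OLIG1 and OLIG2, of the oligodendrocyte lineage, had 0 in both groups. The Cajal-Retzius list had −1.49 in summed counts and −0.68 with each barcode weighted equally. Of its genes with enough counts RELN (102 against 720) and EBF3 (39 against 239) were lower and TP73 (176 against 39, 5.12-fold) was higher. These lists stood at 0.34 (immune) to 4.80 (pigment) per 10000 in mitochondria-high barcodes.

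When pairs were made within the choroid plexus-like cluster, its mitochondria-high barcodes still differed from its barcodes of 1% to 5% share. Such pairing does not hold cell type fully fixed, because the cluster was divided in finer clusterings. Per barcode, the choroid plexus list had a median of 217 against 84.8 per 10000, and the cortical hem list a mean of 9.58 against 17.1. Of the 509, 154 could be paired within the cluster and the same well (medians 5274 and 4939 transcripts), and 6 wells had at least 10 pairs. Among 6752 genes, 5.75% were higher and 4.87% lower. The choroid plexus list stood at 241 against 106 per 10000, a log2 ratio of 1.19 (1.16 to 1.22), and it was higher in 6 of 6 wells by 1.31 to 6.05-fold. TTR had 11064 against 3366 counts, a ratio of 3.53 (3.39 to 3.67), AQP1 had 106 against 30 (3.79-fold), and HTR2C had 21430 against 11816 (1.95-fold). Among 7 markers with enough counts, 5 were at least 2-fold higher.

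Cilia genes were higher in this pairing as well. The multiciliated list stood at 16.4 against 5.85 per 10000, a log2 ratio of 1.48 (1.37 to 1.60), with 6 of 6 genes higher and 5 of 6 wells higher. FOXJ1 (chr17:76136333-76141245) had the largest ratio of the genes named by rule, with 103 against 16 counts (6.91, 4.06 to 12.5). Other cilia genes among the 15 largest were MNS1 (5.32), CFAP45 (5.24), CFAP52 (4.59) and ZNF474 (123 against 22 counts). CDC20B, whose locus is active in cells that build many cilia, had 270 against 54 counts (5.36-fold).

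Further genes were among the largest ratios within the cluster. SLC16A12, a creatine and monocarboxylate carrier, was 6.44-fold higher (156 against 26 counts), and SLC6A20, a proline and imino acid carrier, was 5.60-fold higher in 6 of 6 wells. SLC39A12, a zinc carrier (4.96), and SLC24A4, an exchanger of sodium, calcium and potassium (4.89), were each higher in 6 of 6 wells. TRPV4 was 4.75-fold higher in 6 of 6 wells, and IGF2 was 6.15-fold higher in 4 of 6. With the deepest barcodes only, 99 pairs remained, 5.65% of all genes were higher and 5.12% lower, and the log2 ratios were 1.17 for choroid plexus and 1.51 for cilia genes.

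Genes of the cortical hem, the signalling centre beside the choroid plexus, were lower. The list had a log2 ratio of −0.96 (−1.06 to −0.86) in choroid plexus-like pairs and was lower in 5 of 6 wells. RSPO2, an enhancer of WNT signalling, had 458 against 1506 counts, a ratio of 0.326 (0.293 to 0.362), and was lower in 6 of 6 wells. RSPO3 (0.204) and WNT2B (0.472) were lower too, whereas LMX1A, a factor of hem and choroid plexus, had 494 against 457 counts (1.16-fold). Over all pairs the list was higher (1.52), with RSPO2, LMX1A and BMP4 past 2-fold and RSPO3 lower.

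Neuronal and progenitor transcripts were also fewer. The general neuronal list had a log2 ratio of −1.06 and the radial glia list −0.69, lower in 6 of 6 wells. SNAP25, a synaptic protein, had 15 against 87 counts (0.185), and PTPRO and CDH4, both expressed in developing forebrain, had ratios of 0.144 and 0.192. MASP1 and ADRA1A had the smallest ratios of protein-coding genes, 0.0993 and 0.101. In free RNA of these wells the neuronal list stood at 19.6 per 10000, above both groups (4.70 and 9.83). The matched barcodes therefore lay between the mitochondria-high ones and free RNA for these genes, and the choroid plexus list, at 46.0 in free RNA, gave the same order. The part of free RNA in these differences was not tested.

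Outside the choroid plexus-like cluster, 260 of 343 mitochondria-high barcodes were paired within their own cluster and well (medians 1255.5 and 1263 transcripts). Among 2695 genes, 2.78% were higher and 0.557% lower, but these pairs had 516441 and 588726 transcripts in all, so smaller differences of single genes were not detectable. Genes of cytoplasmic ribosomal proteins were the largest group. Their list stood at 148 against 70.2 per 10000 and 53.9 in free RNA, a log2 ratio of 1.08 (1.02 to 1.13), and 38 of 60 genes with enough counts were at least 2-fold higher, in 8 of 9 wells. RPS29 had 98 against 35 counts (3.19-fold), RPLP0 86 against 32 (3.06-fold) and RPL13 128 against 49 (2.98-fold). Many ribosomal protein genes have near-identical copies that can share reads. In the choroid plexus-like pairs the same list did not differ, with 91.0 against 92.6 per 10000 and 0 of 77 genes past 2-fold.

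Several genes named in these pairs are not in the choroid plexus list but are also known from choroid plexus. They were grouped after their values were seen, and no set was tested. CLU, a secreted chaperone, had 105 against 34 counts (3.52-fold), TRPM3, a cation channel whose gene hosts a choroid plexus microRNA, had 985 against 361 (3.11-fold), and IGFBP7 (3.04) and LAMB1 (2.92) were higher in 8 and 9 of 9 wells. The choroid plexus list had a log2 ratio of 0.83 (37.2 against 20.8 per 10000, 32.1 in free RNA), with TTR at 997 against 517 counts, and the cilia list 0.73 (2.23 against 1.34, 2.27 in free RNA). In summed counts these levels lay near those of free RNA and far under those of choroid plexus-like barcodes. With each barcode weighted equally, the choroid plexus list stood at 53.5 against 27.4 and the cilia list at 3.05 against 1.57. The choroid plexus list then had a median of 26.8 and an upper quartile of 78.0 in mitochondria-high barcodes. With the deepest barcodes only, 2.90% of all genes were higher and 0.492% lower, and both lists had 0.92 and 0.82. MIAT, a nuclear long noncoding RNA of neurons, had the smallest ratio, 0.304 (36 against 135 counts), and OPA1, which fuses the inner mitochondrial membrane, had 0.547.

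Nuclear genes of oxidative phosphorylation were modestly higher in every pairing. Over all pairs the 76 genes stood at 30.5 against 21.4 per 10000 and 22.2 in free RNA, a log2 ratio of 0.51 (0.47 to 0.54), higher in 16 of 16 wells by 1.03 to 1.76-fold. At least 2-fold higher were 13 of 74 genes with enough counts, and 0 were lower. The count of higher genes lay near the 12.6% of all genes, while the median of the 74 genes, 0.59, lay above the −0.06 of all genes. The log2 ratio was 0.38 (0.32 to 0.44) within the choroid plexus-like cluster, in 6 of 6 wells, and 0.43 (0.32 to 0.54) outside it, in 9 of 9 wells. With the deepest barcodes only, these ratios were 0.52, 0.38 and 0.48.

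By complex, over all pairs, complexes III, IV and V had log2 ratios of 0.74, 0.69 and 0.74, and complexes I and II had 0.34 and 0.14. COX8A, a subunit of cytochrome c oxidase, was 3.24-fold higher (197 against 69 counts), ATP5F1A, the catalytic partner subunit alpha of ATP synthase, 2.23-fold, and UQCRB of complex III 2.21-fold. SDHB of complex II, whose 4 subunits are all encoded in the nucleus, had 172 against 203 counts (0.961, 0.780 to 1.18). Within the choroid plexus-like cluster complexes I to V had 0.28, 0.29, 0.56, 0.45 and 0.48, and the intervals of complex I (0.18 to 0.37) and complex V (0.35 to 0.61) overlapped. With each barcode weighted equally within the cluster, complexes I and V had 0.30 and 0.29.

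Genes that maintain and express mitochondrial DNA did not follow. The 15 genes of that list had a log2 ratio of 0.03 (−0.05 to 0.10), with 0 of 14 past 2-fold in either direction, and TFAM, which packages and transcribes mitochondrial DNA, had 119 against 163 counts (0.828, 0.648 to 1.06). Mitochondrial ribosomal proteins had a log2 ratio of 0.16. Among regulators of biogenesis, PPARGC1A, the coactivator PGC-1α, was 5.79-fold higher (771 against 151 counts) and 2.33-fold higher within the choroid plexus-like cluster, whereas NRF1 (0.829) and GABPA (0.731) were not. Genes of mitochondrial dynamics and mitophagy were lower (−0.31), with BNIP3L, a mitophagy receptor, at 511 against 1189 counts (0.488) and at 0.411 within the cluster.

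**Figure D4:**
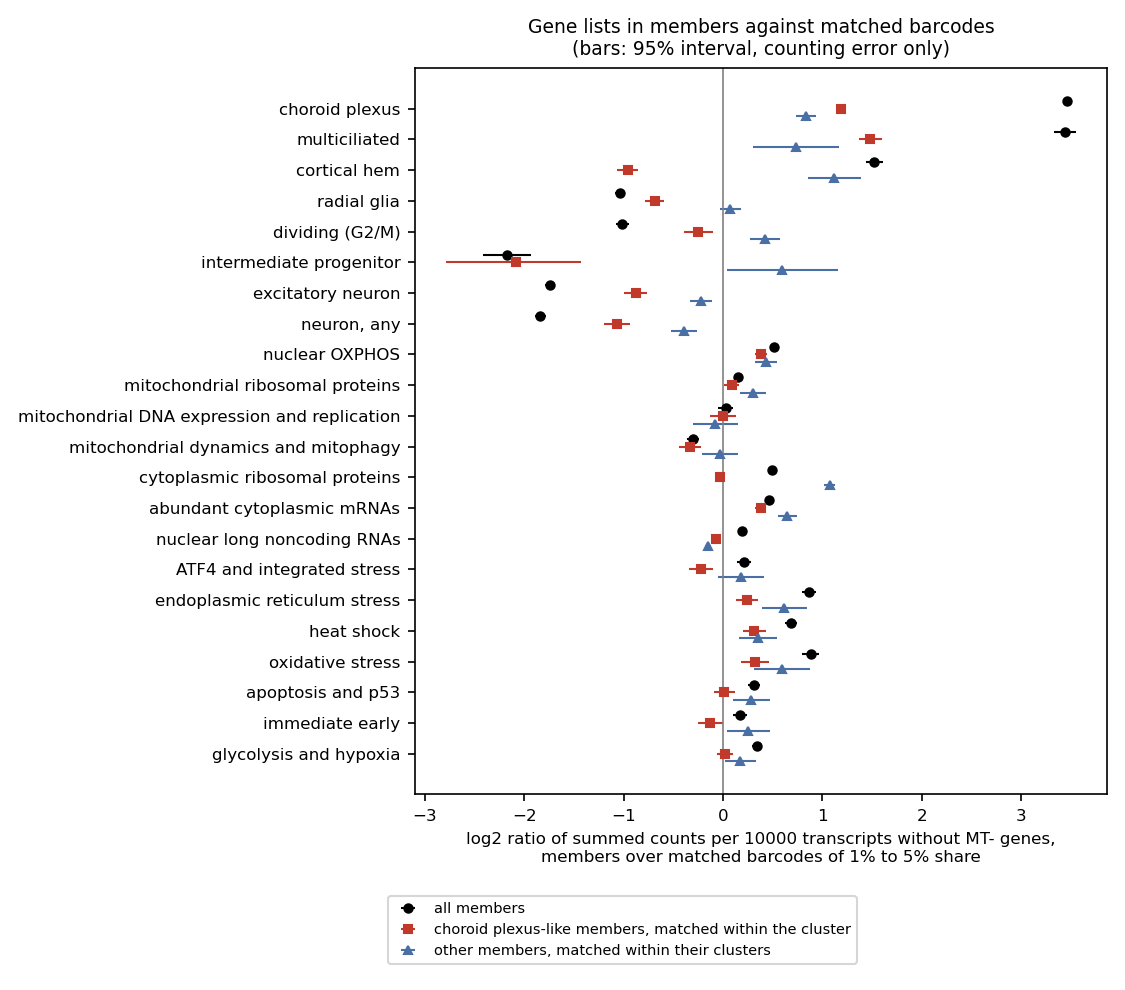
Log2 ratio of summed counts per 10000 transcripts without MT- genes, mitochondria-high over matched barcodes, for gene lists, with 95% intervals for counting error, over all pairs (black circles), within the choroid plexus-like cluster (red squares) and in other clusters (blue triangles). Choroid plexus and multiciliated lists lie at 3.46 and 3.44 over all pairs and at 1.19 and 1.48 within the cluster, and nuclear oxidative phosphorylation lies between 0.38 and 0.51 in all 3.

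Lists of stress genes were mostly higher over all pairs, by less than 2-fold, and within the choroid plexus-like cluster they lay on both sides of equality. The 15 genes of ATF4 and the integrated stress response had a log2 ratio of 0.21 (0.14 to 0.28) over all pairs and −0.22 (−0.34 to −0.10) within the choroid plexus-like cluster. GDF15, a secreted factor released under mitochondrial stress, was 6.95-fold higher (190 against 31 counts) and 3.71-fold within the cluster (83 against 24 counts, in 3 of 6 wells). PSAT1 and ASNS, enzymes of serine and asparagine synthesis that ATF4 induces, were lower, with 110 against 334 counts (0.374) and 99 against 219 (0.513). DDIT3, the factor CHOP, was 1.41-fold over all pairs and 0.551 within the cluster. SLC7A11, a cystine carrier that ATF4 induces, was higher over all pairs (194 against 96 counts, 2.29-fold), as was PPP1R15A, a phosphatase subunit of the same response (245 against 147, 1.89-fold), so members of the list lay on both sides of equality.

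Oxidative stress genes were higher over all pairs (0.88), with NQO1 (7.38-fold, 182 against 28 counts), GCLM (4.97), SOD1 (2.31) and GPX1 (2.28) past 2-fold. Within the choroid plexus-like cluster this list had 0.33, NQO1 1.30 and GCLM 2.59. Endoplasmic reticulum stress (0.86 and 0.24) and heat shock genes (0.68 and 0.32) narrowed in the same way. Apoptosis and p53 genes had 0.31 and 0.01, immediate early genes 0.17 (−0.12 without wells D10 and D11) and −0.13, glycolysis and hypoxia genes 0.35 and 0.02, and a list of 8 stress genes that the study used −0.12 and −0.29. Most of these differences were therefore smaller in the pairs within the choroid plexus-like cluster. In the pairs outside the cluster, all 6 lists other than that of the study lay between 0.17 and 0.61 in summed counts. With each barcode weighted equally, these outside pairs had −0.01 for apoptosis and p53, 0.08 for heat shock and 0.15 for immediate early genes. Glycolysis and hypoxia (0.31), endoplasmic reticulum stress (0.54) and oxidative stress genes (0.66) were then still higher. Members of the glycolysis and hypoxia list went in both directions over all pairs in summed counts. ALDOA (2.47), PKM (2.36) and SLC2A1 (2.21) were at least 2-fold higher, and PDK1 (0.370) and SLC2A3 (0.454) at least 2-fold lower.

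The number of genes per transcript was close between the groups. Thinned to 500 transcripts without MT- genes, they had a median of 436 genes against 442 in matched barcodes, within the choroid plexus-like cluster 434 against 437, and outside it 442 against 445, with no barcode left out. Unthinned medians were 995 against 1170 genes. MALAT1, a long noncoding RNA held in the nucleus, had a ratio of 1.11 over all pairs, 0.956 within the cluster and 0.884 outside it. Abundant cytoplasmic mRNAs had log2 ratios of 0.47, 0.38 and 0.65. The list of nuclear long noncoding RNAs had 0.19, −0.07 and −0.15, and its members differed. NEAT1, of the nuclear paraspeckles, had 10389 against 1765 counts over all pairs (6.68-fold), with ratios of 1.13 within the cluster and 0.730 outside it. RMST had 2.29 over all pairs, 1.00 within the cluster and 2.33 outside it.

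Genes shorter than 5 kb took 2.63% of nuclear-gene transcripts against 2.19%, and genes longer than 300 kb 21.1% against 22.1%. Outside the choroid plexus-like cluster the short genes took 3.06% against 2.17%. Small structured RNAs of RNA polymerase III had 281 against 176 counts over all pairs (0.86 on the log2 scale) and 99 against 42 outside the cluster (1.43). With each barcode weighted equally the log2 ratios were 2.00 over all pairs (1.27 against 0.316 per 10000), 0.03 within the cluster and 1.53 outside it. The median Scrublet doublet score was 0.0679 in mitochondria-high and 0.0893 in matched barcodes, and they had 7.14 against 5.95 reads per transcript. Outside the cluster the reads per transcript were 8.02 against 5.33, and within it 8.45 against 9.60. The part of sequencing saturation in the difference was not tested.

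Finally, the lists were followed over classes of the share, each paired with its own barcodes of 1% to 5%. Above 5% and up to 10%, 3023 pairs gave log2 ratios of 1.69 for choroid plexus, 1.45 for cilia and 0.17 for nuclear oxidative phosphorylation genes. Above 10% and up to 20%, 729 pairs gave 3.40, 3.42 and 0.49, and above 20%, 117 pairs gave 4.16, 3.95 and 0.76. All 3 lists thus stood higher with each class in summed counts. Neuronal genes did not, with −0.47, −1.89 and −1.30. The class above 20% had 3 wells with at least 10 pairs. Its mitochondria-high barcodes held 510240 transcripts without MT- genes, and the deepest had 118598 transcripts in all, so these sums lean on few barcodes.

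Within the choroid plexus-like cluster the same order was found in 242, 149 and 29 pairs. Choroid plexus genes had 0.72, 1.23 and 1.38, cilia genes 0.95, 1.47 and 3.44, and nuclear oxidative phosphorylation genes 0.14, 0.37 and 0.67. Cortical hem genes went the other way, with −0.61, −0.86 and −1.59. ATF4 genes had −0.10, −0.23 and −1.08. The highest class here had 1 well with at least 10 pairs, so that its values rest on few wells.

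**Figure D5:**
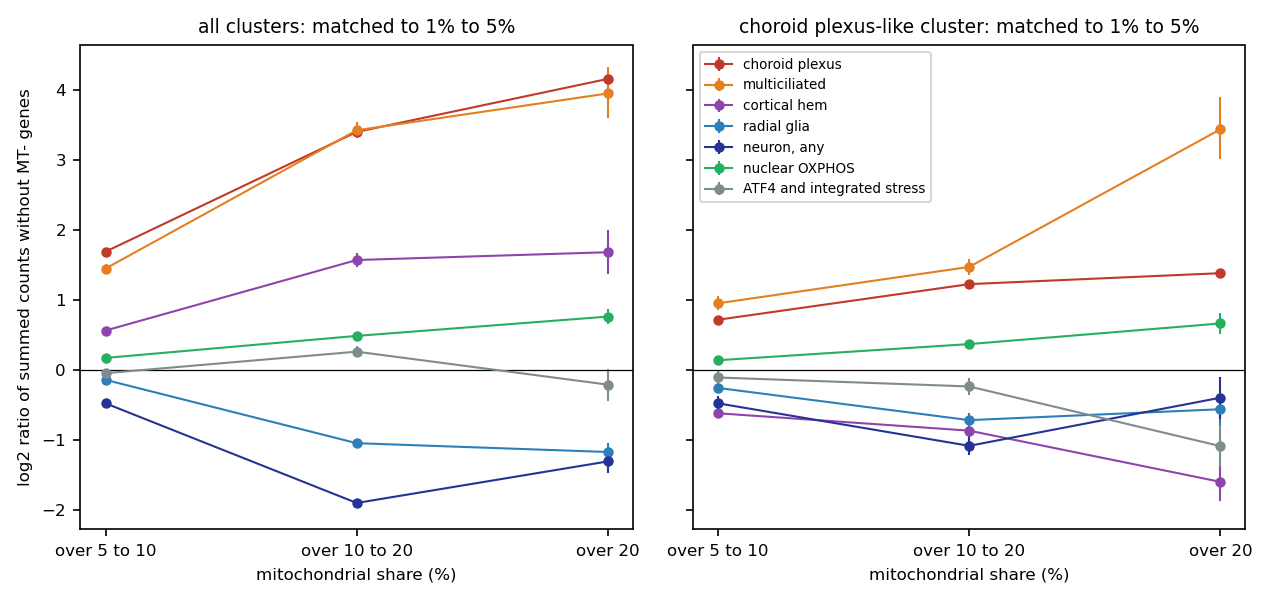
Log2 ratio of summed counts without MT- genes against matched barcodes of 1% to 5% share (vertical axis) for classes of the mitochondrial share (horizontal axis, %), over all clusters (left) and within the choroid plexus-like cluster (right), with 95% intervals for counting error. Choroid plexus, multiciliated and nuclear oxidative phosphorylation lists lie higher in each class, up to 4.16, 3.95 and 0.76 on the left, while cortical hem falls to −1.59 on the right.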

How the data were processed

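Split-seq (Parse Biosciences Evercode) measured RNA of organoid cells in 1 library and of nuclei in another. The authors demultiplexed reads into sub-libraries and processed them with the Parse pipeline on GRCh38. For its own analysis the study then left out cells above 20% mitochondrial share and removed estimated RNA contamination. Neither step was applied here, so the kept barcodes are not the study's set of cells. The authors deposited unfiltered and unnormalized transcript counts for each barcode and gene. All columns of counts were used, and barcodes were grouped only as cells or nuclei, since the deposited metadata give 1 sample name per library. Members and gene lists were chosen with earlier results of these data known, and the lists as well as the alternatives named as added were not chosen blind to them.

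Python 3.11.15 with numpy 2.4.6, scipy 1.17.1, pandas 2.3.3, scanpy 1.11.5, anndata 0.12.19, scikit-learn 1.9.0, igraph 0.11.9 and matplotlib 3.10.9 was used. Kept barcodes were scaled to 10000 transcripts, log-transformed and clustered without MT- genes and their copies (2000 variable genes, 30 principal components, 15 neighbours, Leiden resolution 1, seed 0). A cluster met a marker list when at least 3 of its markers reached 1.5-fold over the remaining barcodes and were detected in at least 25% of the cluster. Only the choroid plexus-like cluster was named, as the one that met most choroid plexus markers among clusters above a size limit. That limit left out cluster 21, with 111 barcodes, which met more of these markers. Scrublet, with an expected rate of 5%, marked 0 barcodes, so it had not worked here and no doublets were removed. As an alternative, the 5% with the highest scores were left out.

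Matching took 1 barcode per mitochondria-high barcode, without replacement, from the same well and within 0.25 in log2 depth. Genes needed 100 counts over both groups together. Genes named were the mitochondrial mRNAs and rRNAs, the 15 largest and 15 smallest ratios on 1 side of equality in at least 7 of 8 sub-libraries, up to 4 most abundant genes per list and 5 leading genes per cluster. Further genes of a list (among them KCNE2, PMEL, GFAP, OLIG1, OLIG2, PECAM1, CDH5, C1QA, COL1A1, COL1A2, CSF1R, S100B, SLC7A11, RMST, PAX6, FABP7, HES1, SDHB, COX8A, GCLM, PSAT1, ASNS, DDIT3, BNIP3L, ALDOA, SLC2A1, PDK1 and SLC2A3) were named after their values were seen. Coordinates are from GENCODE 44, to which 62625 of 62704 genes were matched by identifier. Ratios carry exact conditional binomial intervals and shares Clopper-Pearson intervals. The steps were tested on simulated counts. Depth, given in the report, limits single genes most outside the choroid plexus-like cluster. Some items are not reported here.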

Additional observations from a re-analysis of the deposited data

Results flagged for a closer look

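Mitochondria-high barcodes also occurred among nuclei, which should hold little mitochondrial RNA. Of 14256 kept nuclei (more than 500 genes and more than 1000 transcripts), 82 had a share above 10%, which is 0.575% (0.458 to 0.713%, exact binomial interval), while the median share of kept nuclei was 0.0866%. This signal lay in a library outside the comparisons of the report, with no control sample, and its cause was not tested.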

How the results depend on the processing

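Of the lists at least 2-fold apart over all pairs, 6 had the other sign in a pairing of the report: cortical hem (1.52) and Cajal-Retzius (−1.49) had −0.96 and 0.53 within the choroid plexus-like cluster, and astrocyte and oligodendrocyte lineage (2.87), intermediate progenitor (−2.17), G2/M (−1.01) and radial glia (−1.04) had −0.27, 0.60, 0.42 and 0.07 outside it. The order of pairing, a limit of 0.9 on genes over transcripts and leaving out the highest doublet scores moved none of the values that follow. The genes at least 2-fold higher and lower (1535 and 1139) were 324 and 163 when matched within cluster, 388 and 329 for choroid plexus-like pairs, 174 and 31 for pairs outside it, 8488 and 7881 with at least 1 count, 2563 and 2465 at 1.5-fold, and 847 and 460 at 3-fold. With at least 30 counts 2354 were higher, and with each barcode weighted equally 684 were lower. Pairs outside the cluster are here 342 matched by well and depth, and those in the report 260 matched within cluster as well (75 and 15 genes, choroid plexus 0.83). The choroid plexus list (3.46) had 3.50 with all 1% to 5% barcodes weighted, 3.84 when matched on transcripts without MT- genes, 1.19 within cluster, 3.70 within sub-library, 3.40 at 10% to 20%, 3.53 above 1500 transcripts, 3.51 without well D10, 3.52 scaled to the median gene, 2.81 with equal weight, 1.84 outside and 1.19 inside the choroid plexus-like cluster, 3.34 by mRNA share and 3.53 with the deepest barcodes. The multiciliated list (3.44) had, for the same settings where it moved, 3.88 (without MT- genes), 1.46 (cluster), 3.20 (without D10), 3.03 (without D10 and D11), 2.82 (equal weight), 0.72 and 1.48 (outside and inside), 3.17 (mRNA share) and 3.59 (deepest). Nuclear oxidative phosphorylation (0.51) had 0.40 within cluster, 0.57 scaled to the median gene, 0.47 without D10 and D11, and 0.58 and 0.38 outside and inside. The ATF4 list (0.21) had 0.13 without MT- genes in the match, −0.13 within cluster, 0.32 with equal weight, 0.32 without D10 and D11 and −0.22 inside the cluster. Immediate early genes (0.17) had −0.12 without D10 and D11, 0.06 without MT- genes in the match, −0.03 matched within cluster, −0.13 inside the choroid plexus-like cluster, and 0.30 within sub-library, with equal weight and outside the cluster. The mitochondria-high percent (2.90) was 4.52 above 8%, 1.04 above 15%, 2.38 without D10, 2.58 with the deepest barcodes and 0 from the 13 mRNAs, which left no gene comparison. The percent in the leading cluster (30.5) was 19.6 and 47.7 at resolutions 0.5 and 2 and 46.2 with seed 1. Equal weight, the deepest barcodes, the mRNA share, the exclusion of 2 wells and the split by cluster were chosen after seeing the data. The causes were not tested, and matching within cluster does not hold cell type fully fixed. No paired test over samples was made, because each library carries 1 sample name. Barcodes were matched within wells, whose contents are not known here.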
